A study of Drosophila melanogaster with 10 samples.

Results

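The genes described here were 50 long non-coding RNA (lncRNA) genes well expressed in libraries sorted for developing T4 and T5 neurons of the Drosophila optic lobe. The choice counted all barcodes, so that not every gene was well expressed in the T4/T5 cells themselves. They were the features whose symbol began with lncRNA:CR and that held at least 3000 unique molecular identifiers (UMIs, tags that mark single captured transcripts) summed over all barcodes of 10 single-cell libraries. The files listed 1893 lncRNA:CR genes among 17757 genes, 1231 of them with a UMI, and 50 reached the minimum. The sum of UMIs chose the genes, so that their total abundance is given as a description and was not tested. CR is short for a computed non-coding gene of the fly annotation, and the lncRNA: prefix is left out below.

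A lncRNA is a long transcript without a conserved reading frame. Some lncRNAs act at the chromosome, some bind proteins or organise granules, some are the primary transcripts from which microRNAs (miRNAs) are cut, and for most of the numbered fly genes no function is established. T4 and T5 are the direction-selective neurons of the fly motion pathway. T4 dendrites receive input in the medulla and T5 dendrites in the lobula, and each type comes in the subtypes a, b, c and d, whose axons end in separate layers of the lobula plate and which prefer motion in separate directions. In the pupa these neurons extend dendrites, choose layers and build synapses, a period in which RNA that marks a type or subtype can be read next to RNA that marks age.

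All 10 libraries came from pupae of 1 genotype, which carried UAS-mCD8::GFP recombined onto SS00324-Gal4. This split-Gal4 line labels T4/T5 neurons with membrane GFP, and GFP-positive cells were sorted from dissected, dissociated brains into droplets. Time was counted from puparium formation (APF), at 24, 36, 48, 60 and 72 h, with 2 libraries at each stage, which the study's methods call biological replicates while the labels do not say what separated them. The p-values over the stages therefore measure the spread between these libraries. Those between T4 and T5 and between subtypes take the library as a block. They measure how evenly a difference within libraries repeats. Neurons of every class came from the same suspension in each library, female and male pupae were not separated, and no library came from unlabelled neurons or from another driver line, so that what the gate and the dissociation do to RNA cannot be read from these samples.

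The libraries held 72871 barcodes, of which 62584 passed the filters on stress genes and UMIs, and 44186 cells with a median of 4687 UMIs were named as T4a to T5d from marker genes, 918 to 8446 per library and 102 to 1475 per class and library. Long non-coding genes were kept out of the genes used for clustering. The markers of the labelled type were present in every class and library, with SoxN at 1005 to 4809.8 CPM (the UMIs of a gene over all UMIs of the cells summed, on the usual CPM scale), whereas the glial gene repo was at 0 to 2.06 CPM and the glutamatergic gene VGlut at 0 to 4.09 CPM. TfAP-2 was at 161 to 583 CPM in T4 classes and at 1.16 to 14.3 CPM in T5 classes. A further 703 cells with glial markers (glia-like) and 3204 other neurons with low SoxN were set apart. The glia-like cells were not free of T4/T5 markers. They held SoxN at 759, Sox102F at 236 and Lim1 at 302 CPM, against 2248, 777 and 1020 CPM in the named cells, all libraries pooled. Any 2 libraries shared 0 to 53 barcodes (45 pairs).

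In 4 libraries CR34335 stood far above the others. It reached 9392 CPM in 36 h replicate 1, 22778 in 48 h replicate 1, 7695 in 60 h replicate 2 and 32830.1 in 72 h replicate 1, while the other 6 libraries held 686 to 1559.9 CPM. Within a stage the same 4 libraries had fewer UMIs in all and a smaller share of UMIs in mitochondrial, heat shock and ribosomal protein genes, 19.1 against 21.6% at 36 h, 14.4 against 20.4% at 48 h, 15.2 against 16.2% at 60 h and 9.82 against 16.5% at 72 h. Comparisons below were also fitted on the 6 other libraries alone, an alternative chosen after these values were seen. These 6 hold both libraries at 24 h and only 1 library at each later stage. Only effect sizes are therefore given from them. The part of CR34335, or of what sets these libraries apart, in other results was not tested.

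The 50 genes held 2847855 of 338727250 UMIs (0.841%) and 95.1% of all UMIs of lncRNA:CR genes. Their median total was 8674.5 UMIs, against 479 over all genes with a UMI, and 5570 genes of any kind reached the same minimum. CR45242 (3213 UMIs), CR44914 (3067) and CR43199 (3018) lay just above the minimum, and CR45333 (2480), CR45187 (2398) and CR31044 (2338) just below it. Without its richest stage 36 of the 50 genes would still have reached the minimum, so that 14 of them entered through the stage at which they were high. CR33938, CR43126, CR46003, CR42491 and CR45242, whose stage values are given below, are among these 14, and their changes over the stages are given as a description. All 50 had enough counts to be tested in every comparison over stages. The kit tags the 3′ ends of transcripts, and levels (CPM) are therefore not per length.

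Of the 50 genes, 15 lay on chromosome arm 3L, 10 on X, 9 on 2L, 9 on 3R and 7 on 2R of the BDGP6.54 annotation, which is newer than the one used by the authors. The longest annotated transcript had a median of 1233.5 bases (344 to 21024), and 31 genes had a single exon in it. By position, 26 genes overlapped another gene on the same strand, 15 of these a protein-coding gene, 9 overlapped genes of the opposite strand only, and 15 overlapped none. Of the 26 genes, 8 held a miRNA. CR43334 is listed with the synonym pri-bantam and holds the growth-promoting miRNA bantam, CR43651 holds mir-14, a miRNA known for limiting cell death, CR46006 and CR46004 hold mir-276a and mir-276b, CR43857 holds mir-275, CR45347 holds mir-4973, CR45919 holds the neuronal miRNA mir-124 and CR31451 holds mir-9381. Among the rest, 10 lay wholly inside a protein-coding gene on its own strand, CR34335 among them in DIP-alpha, which codes for an immunoglobulin cell surface protein. The files cannot say from which of overlapping genes of one strand a UMI came where both annotate the same bases.

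The most abundant gene after CR34335 was CR42862 (chr3L:224106-230964, plus strand), which shares its strand with CG33229. Its levels were 803 and 694 CPM (24 h), 686 and 704 (36 h), 599 and 711 (48 h), 1134 and 1112 (60 h) and 1117 and 1082 (72 h). Both libraries at 60 h and 72 h lay above all 6 earlier ones. CR46006 (chr3L:10323501-10367450, plus strand), the mir-276a host, had 1315 and 1539.6 CPM (24 h), 1634 and 1076 (36 h), 640.0 and 426 (48 h), 229.7 and 227 (60 h) and 286 and 189.9 (72 h). Every library up to 36 h lay above every later one. CR31451 (chr3R:23983503-23985065, plus strand), renamed mimi in the newer annotation and known as a scaffold of neuronal granules, had 246 and 240.4 CPM (24 h), 205 and 218 (36 h), 154 and 222 (48 h), 369.7 and 369 (60 h) and 529 and 837 (72 h). The later libraries, from 60 h on, held more than any earlier one, and 72 h replicate 2 most.

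CR30055 (chr2R:12589239-12591395, plus strand) lies opposite to Sin3A, which codes for a transcriptional co-repressor, and had 71.3 and 81.3 CPM (24 h), 101 and 101 (36 h), 208 and 165 (48 h), 158 and 158 (60 h) and 260.5 and 221 (72 h). All libraries at 24 h lay below 100 CPM and all from 48 h on above 150 CPM. CR45102 (chrX:3701857-3703285, plus strand), 185 bases from Mnt, which codes for a transcriptional repressor, had 87.9 and 99.4 CPM (24 h), 122 and 91.3 (36 h), 60.5 and 103 (48 h), 72.2 and 63.6 (60 h) and 45.4 and 77.4 (72 h). Its stages overlapped and no change from 24 to 72 h was called (log2 fold change -0.066 (SE 0.30, adjusted p = 0.86), edgeR). CR43283, renamed cherub in the newer annotation and known for its unequal partitioning in dividing neural stem cells, and CR44978 complete the 8 genes with the most UMIs and are described with the other cells and with the subtypes.

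**Figure D1:**
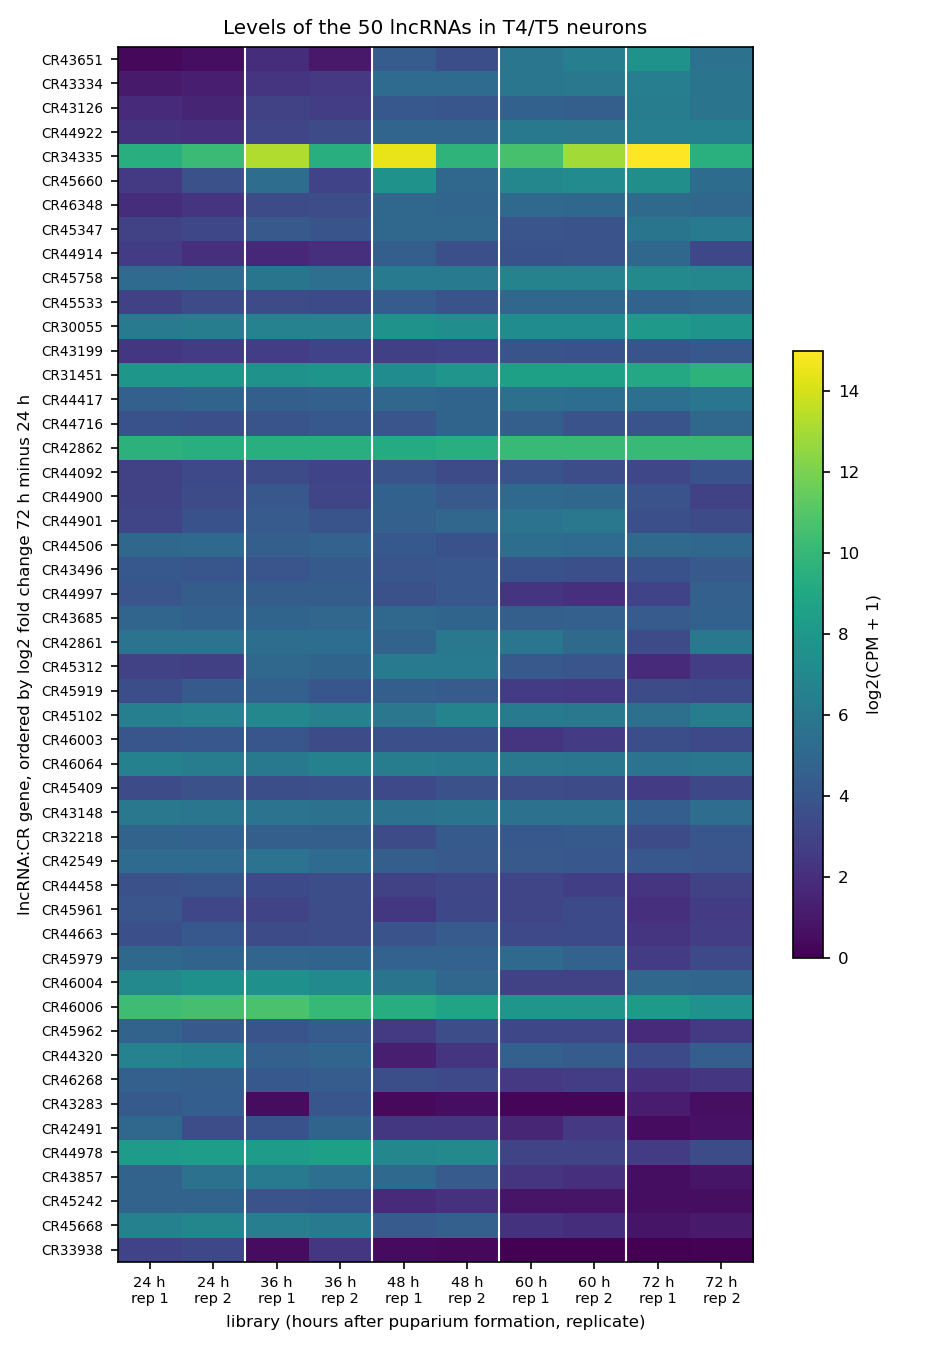
Level of each of the 50 lncRNA genes (rows) in the named T4/T5 cells of each of the 10 libraries (columns, 24 to 72 h APF, replicates 1 and 2), as log2(CPM + 1) in colour, rows ordered by the log2 fold change from 24 to 72 h. Genes at one end lose their signal with age and those at the other gain it, and in the CR34335 row 4 libraries stand out, up to 32830.1 CPM.

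Most of the genes were found in few cells. Over the 50 genes and the libraries, the median share of named cells with at least 1 UMI of a gene was 11.2%, and 4.60% once each cell was thinned to 2000 UMIs, for which 42967 of the 44186 cells were deep enough. The median level was 24.8 CPM.

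Some genes that passed the minimum held few of their UMIs in named T4/T5 cells. CR43283 held 108372 UMIs in all barcodes, of which 1586 were in named T4/T5 cells, 5007 in glia-like cells and 8505 in other neurons, while the rest lay in barcodes of none of these groups. Its level was 2971 CPM in the glia-like cells and 431 CPM in the other neurons, against 7.34 CPM in named T4/T5 cells, all libraries pooled. In T4/T5 cells it was 17.7 and 21.1 CPM (24 h), 0.416 and 15.1 (36 h), 0.311 and 0.473 (48 h), 0.2 and 0.199 (60 h) and 1.2 and 0.561 (72 h). The level was above 10 CPM in 3 of the 10 libraries, both at 24 h and 36 h replicate 2, and near 0 elsewhere. The fall from 24 to 72 h was called (log2 fold change -4.04 (SE 1.05, adjusted p = 0.01)). CR33938 (chr3R:6699560-6700164, minus strand) followed the same course, with 839 CPM in glia-like cells, 109 CPM in other neurons and 2.79 CPM in T4/T5 cells. Its UMIs in named cells numbered 125 and 366 (24 h), 3 and 92 (36 h), 6 and 8 (48 h), 0 and 0 (60 h) and 0 and 2 (72 h). Of its 24188 UMIs, 602 were in named T4/T5 cells, 1414 in glia-like cells and 2144 in other neurons. Whether RNA from cells outside the T4/T5 classes took part in either T4/T5 level was not tested. In the named cells the glial markers Gs2 (0.755 CPM) and Eaat1 (0.926 CPM) were near 0, against 373 and 256 CPM in the glia-like cells. The gene nrv2, also higher in the glia-like cells, was at 163 against 731 CPM. CR43283 and CR33938 were likewise far lower in the named cells, at 7.34 against 2971 CPM and 2.79 against 839 CPM. What these levels say about the source of the RNA was not tested.

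Other genes differed in level between the kinds of cell in either direction. CR31451 was at 1115 CPM in other neurons and 109 CPM in glia-like cells against 355 CPM in T4/T5 cells, and CR44997 at 132 CPM in other neurons against 15.5 CPM. In the opposite direction, CR44978 was at 168 CPM in T4/T5 cells, 61.7 CPM in glia-like cells and 24.5 CPM in other neurons, CR43126 at 21.3, 4.15 and 2.18 CPM, and CR44914 at 9.93, 0.593 and 0.76 CPM. These levels pool libraries of all stages, which contributed unequal numbers of the other cells, and no test was made. The glia-like cells also carried T4/T5 markers, as given above, so that their levels are not those of glia alone.

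**Figure D2:**
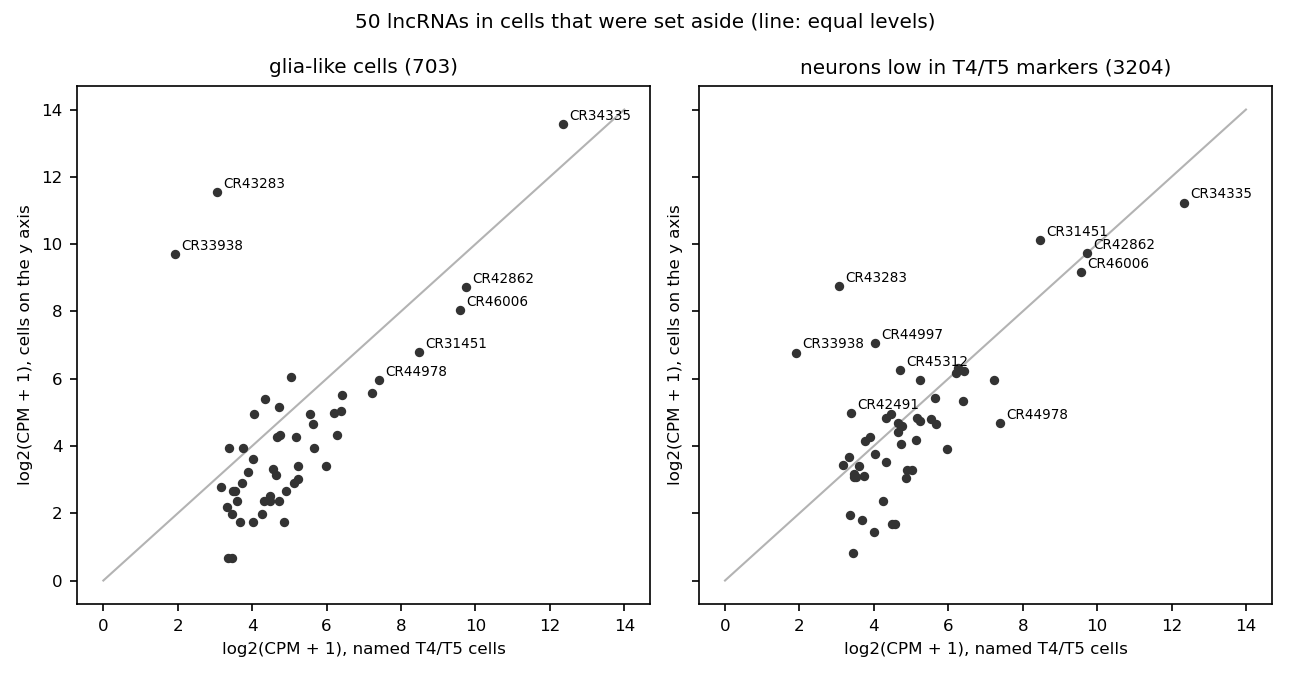
Level of each of the 50 genes in the named T4/T5 cells (horizontal axis, log2(CPM + 1)) against its level in the 703 glia-like cells (left) and in the 3204 other neurons (right; vertical axes, log2(CPM + 1)), all libraries pooled, 1 point per gene and a line at equal levels. CR43283 and CR33938 lie far above the diagonal, at 2971 and 839 CPM in the glia-like cells.

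The stages were compared to ask how the genes changed while dendrites and synapses formed. Among the 50 genes, 38 changed at some stage (F test over the stages, edgeR quasi-likelihood, adjusted p under 0.05 over 8015 genes), where 55.5% of all genes tested did. From 24 to 72 h, 35 changed, 19 upward and 16 downward, against 58.7% of all genes, 29.1% upward and 29.6% downward. The median absolute log2 fold change was 1.94 for the 50 genes and 0.96 for all genes, and a change of at least 2-fold was called for 30 genes, against 42.8% of all genes. These figures include the 14 genes that reached the minimum only with their richest stage, for which the minimum itself favours a difference between stages, so that they describe the list and do not set it apart from all genes. Of the other 36 genes, 27 changed at some stage and 24 from 24 to 72 h, 15 upward and 9 downward, with a median absolute log2 fold change of 1.73. No count is drawn from the 6 libraries low in CR34335, which hold only 1 library at 72 h. Fold changes are on the scale of TMM normalisation factors, which fell from 1.23 at 24 h replicate 1 to 0.750 at 72 h replicate 1, so that they differ from ratios of the printed CPM. On unadjusted log2(CPM + 1) class means fitted with limma the median of all genes moved by -0.48, and 36 genes were called, 15 upward and 21 downward. The shares of all genes given here belong to the edgeR fit.

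Between neighbouring stages the calls were unequal. From 24 to 36 h 7 genes changed, 6 of them upward, where 4.43% of all genes changed, 3.21% upward and 1.22% downward. From 36 to 48 h 21 changed, 12 upward and 9 downward (16.5% of all genes, 9.46% and 7.02%), and from 48 to 60 h 22 changed, 11 in each direction (19.2%, 9.18% and 10.0%). From 60 to 72 h 12 changed, 7 upward and 5 downward (9.42%, 5.14% and 4.28%). These counts too include the 14 genes that reached the minimum only with their richest stage. They describe the list and do not set it apart from all genes.

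All 8 genes that hold a miRNA changed at some stage, where 55.5% of all genes did, and 7 of them from 24 to 72 h, 4 upward and 3 downward (58.7% of all genes, 29.1% and 29.6%). The largest rise of the 50 genes was that of CR43651 (chr2R:9552844-9553940, plus strand), the mir-14 host, with 0.23 and 0.5 CPM (24 h), 2.91 and 1.05 (36 h), 19.8 and 11.4 (48 h), 59 and 83.4 (60 h) and 203 and 50.4 (72 h). Each stage up to 60 h lay above the one before without overlap, while the 72 h libraries lay on either side of those at 60 h, the one high in CR34335 above. The log2 fold change from 24 to 72 h was 8.89 (SE 0.99, adjusted p = 1.0e-04), and 7.38 without 72 h replicate 1 and 9.59 without 72 h replicate 2. CR43334 (chr3L:628435-643900, plus strand), the bantam host, had 1.09 and 1.36 CPM (24 h), 3.88 and 4.63 (36 h), 36.8 and 36.4 (48 h), 59.1 and 64.2 (60 h) and 84.9 and 52.6 (72 h). Each stage up to 60 h lay above the one before, with a log2 fold change from 24 to 72 h of 6.36 (SE 0.35, adjusted p = 2.4e-06). CR45347 (chr2L:20562247-20575720, plus strand), the mir-4973 host, had 6.44 and 8.71 CPM (24 h), 17.6 and 13.7 (36 h), 32.4 and 30.8 (48 h), 14.8 and 13.4 (60 h) and 55.9 and 75.9 (72 h). It dipped at 60 h below both 48 h libraries and was highest at 72 h, with a log2 fold change of 3.66 (SE 0.24, adjusted p = 5.4e-06).

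The mir-276 hosts fell. CR46004 (chr3L:10306678-10320600, plus strand), which holds mir-276b, had 134 and 186 CPM (24 h), 180.5 and 143 (36 h), 54.1 and 30.2 (48 h), 6.5 and 6.36 (60 h) and 29.4 and 28.9 (72 h). The 60 h libraries were lowest and both 72 h libraries lay above them again. From 24 to 72 h its log2 fold change was -1.89 (SE 0.31, adjusted p = 0.001) and that of CR46006 -2.0 (SE 0.35, adjusted p = 0.0013). CR46003, which overlaps CR46004 on the opposite strand and holds no miRNA, had a fitted log2 fold change from 24 to 72 h of -0.076. It reached the minimum only with its richest stage, 24 h, so that its stage values are a description. It had 15.1 and 15.8 CPM at 24 h, 3.9 and 5.17 CPM at 60 h and 11.1 and 8.73 CPM at 72 h. CR43857 (chr2L:7423820-7425932, plus strand), the mir-275 host, had 26.3 and 47.7 CPM (24 h), 73.9 and 43.2 (36 h), 33.5 and 19 (48 h), 3.7 and 3.12 (60 h) and 0.48 and 0.811 (72 h). It was highest at 36 h replicate 1 and under 1 CPM in both 72 h libraries, a log2 fold change of -5.21 (SE 0.53, adjusted p = 6.1e-05). CR45919, the mir-124 host, had 10.9 and 18 CPM (24 h), 23 and 15.4 (36 h), 22.1 and 18.8 (48 h), 5.35 and 4.64 (60 h) and 10.1 and 9.14 (72 h). It was lowest at 60 h, and its change from 24 to 72 h was not called (log2 fold change -0.044 (SE 0.30, adjusted p = 0.91)). A 3′ tag on such a gene counts the primary or spliced host transcript, and mature miRNAs are not captured by this assay.

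Of the 15 genes that overlap a protein-coding gene on their own strand, 9 changed from 24 to 72 h, 3 upward and 6 downward, a share close to the 58.7% of all genes. Among the 15, CR46268, CR45962, CR45961, CR42491, CR45409 and CR44092 reached the minimum only with their richest stage. The count is therefore a description. CR45660 (chr3L:2629834-2630693, minus strand) overlaps Pxn on its strand, which codes for the matrix enzyme peroxidasin, and had 4.83 and 12.3 CPM (24 h), 39.5 and 7.1 (36 h), 198 and 32.3 (48 h), 125 and 149.7 (60 h) and 170.5 and 39.1 (72 h). At 36, 48 and 72 h the replicate high in CR34335 held several times the level of the other. The log2 fold change from 24 to 72 h was 4.21 (SE 1.21, adjusted p = 0.016), and the call was lost without 24 h replicate 1 (3.67, adjusted p = 0.10), 24 h replicate 2 (5.10, 0.051) or 72 h replicate 1 (2.62, 0.074), while in the 6 libraries low in CR34335 it was 2.56. Pxn itself rose, with 99.7 and 87.1 CPM at 24 h and 305 and 423 CPM at 72 h (log2 fold change 2.52 (SE 0.22, adjusted p = 2.9e-05)). CR42491 (chrX:762615-763810, minus strand), in the ribosomal protein gene RpL22, fell by 4.65 on the log2 scale, from 32 and 10.5 CPM at 24 h to 0.4 and 0.655 CPM at 72 h. The fall was 3.73 without 24 h replicate 1. RpL22 fell by 2.57 on the log2 scale, from 280.5 and 115.1 to 12.8 and 32.6 CPM.

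Further genes overlap a coding gene on their strand. CR44901 and CR44900 both lie inside CG42750. CR44901 had 7.93 and 12.6 CPM (24 h), 19.1 and 13.9 (36 h), 23.6 and 30.3 (48 h), 52.4 and 62.3 (60 h) and 11.8 and 9.73 (72 h), highest at 60 h and near the first level at 72 h, so that its change from 24 to 72 h was not called (log2 fold change 0.61 (SE 0.31, adjusted p = 0.11)). CR44900 had 6.44 and 9.68 CPM (24 h), 15.7 and 7.7 (36 h), 24.4 and 17.6 (48 h), 33.9 and 30.6 (60 h) and 13.1 and 6.74 (72 h) and the same peak at 60 h. CR44320 (chr3R:26195250-26230268, plus strand), on the strand of CG12290, had 97.7 and 87.9 CPM (24 h), 23.4 and 28.9 (36 h), 1.43 and 4.03 (48 h), 23.5 and 20 (60 h) and 9.36 and 21.5 (72 h). It fell to 48 h and was higher again at 60 h in both libraries, and its log2 fold change from 24 to 72 h was -2.04 (SE 0.42, adjusted p = 0.0032). CG12290 fell over the same span, by 1.87 on the log2 scale. CR34335, inside DIP-alpha, had a log2 fold change of 4.80 (SE 2.13, adjusted p = 0.083) and was not called, its 4 high libraries being spread over 4 stages, and DIP-alpha fell by 1.73 on the log2 scale.

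Genes that overlap no coding gene on their strand made up the rest of the large changes. CR43126 (chr3R:28586048-28591386, plus strand), 784 bases from the transcription factor gene fkh, had 2.41 and 1.9 CPM (24 h), 6.66 and 5.5 (36 h), 16.2 and 15.4 (48 h), 24.5 and 22.3 (60 h) and 81.7 and 53.5 (72 h). Each stage lay above the one before, with a fitted log2 fold change from 24 to 72 h of 5.57. For fkh the level followed CR34335 across replicates, with 1328 and 314 CPM at 72 h and 1050.1 and 342 CPM at 48 h, and its change from 24 to 72 h was not called (log2 fold change 1.78 (SE 0.75, adjusted p = 0.07)). CR44922 (chr3R:4375084-4377600, plus strand), 1000 bases from Sfxn1-3, had 3.62 and 3.24 CPM (24 h), 7.63 and 10.4 (36 h), 29.2 and 29 (48 h), 64.9 and 60 (60 h) and 82.9 and 87.2 (72 h). Its replicates lay close together and each stage lay above the one before, a log2 fold change of 5.20 (SE 0.19, adjusted p = 4.3e-07). CR46348 (chr3L:22570364-22572033, minus strand), 1081 bases from CG14459, had 2.93 and 3.88 CPM (24 h), 10.3 and 10.6 (36 h), 33.2 and 29.3 (48 h), 34.1 and 32.5 (60 h) and 34.9 and 30.3 (72 h). Its libraries from 48 h on overlapped and lay above those of the first stages, with a log2 fold change from 24 to 72 h of 3.80 (SE 0.22, adjusted p = 3.3e-06).

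Large falls were found among the same genes. CR45668 (chrX:5882480-5899989, minus strand), opposite to CG16721, had 95.4 and 116 CPM (24 h), 85.6 and 69 (36 h), 19.2 and 23.6 (48 h), 3.6 and 2.92 (60 h) and 0.8 and 1.09 (72 h). Each stage lay below the one before, with a log2 fold change from 24 to 72 h of -6.22 (SE 0.27, adjusted p = 8.2e-07), while CG16721 rose by 1.38 on the log2 scale. CR45242 (chr3L:10269482-10270353, plus strand), beside the mir-276 hosts on 3L, had 26.9 and 27 CPM (24 h), 13.5 and 12.5 (36 h), 2.61 and 3.43 (48 h), 0.8 and 0.795 (60 h) and 0.48 and 0.468 (72 h). Here too each stage lay below the one before, with a fitted log2 fold change of -5.29. It held 1049 UMIs outside 24 h, so that its level at 24 h is what brought it over the minimum. CR44978 (chr2L:19600697-19605490, minus strand), opposite to Lar, which codes for a receptor tyrosine phosphatase of growing axons, had 310.1 and 325 CPM (24 h), 301 and 375 (36 h), 119.8 and 134 (48 h), 7.55 and 7.36 (60 h) and 5.04 and 9.73 (72 h). The level held to 36 h, had dropped at 48 h and was under 10 CPM in all 4 later libraries, a log2 fold change from 24 to 72 h of -4.87 (SE 0.27, adjusted p = 2.5e-06). Lar had 654 and 632 CPM at 24 h and 1030.0 and 708 CPM at 72 h and rose by 1.02 on the log2 scale. CR33938 had a fitted log2 fold change of -6.85, which rests on 0 and 2 UMIs at 72 h and moved to -10.17 without 72 h replicate 2.

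**Figure D3:**
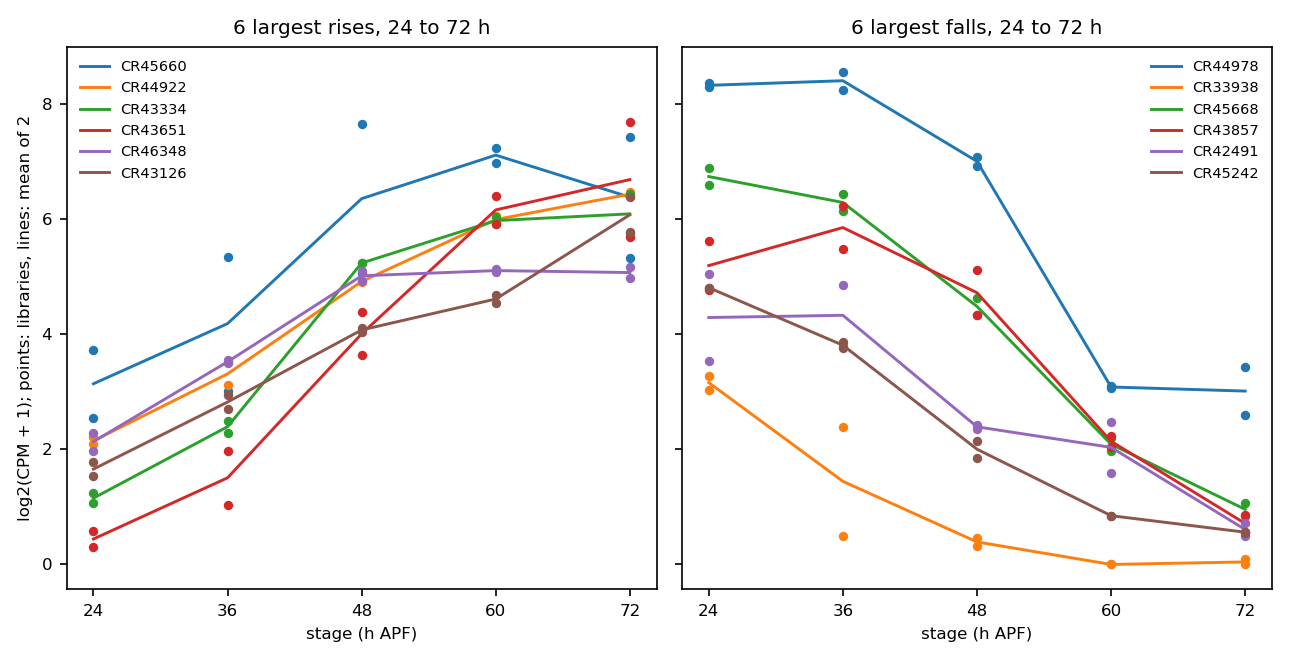
Level as log2(CPM + 1) in named T4/T5 cells by stage (h APF) for the 6 lncRNA genes with the largest called rises and the 6 with the largest called falls from 24 to 72 h, 1 point per library and a line through the mean of the 2 libraries. CR43651 goes from 0.23 and 0.5 CPM at 24 h to 203 and 50.4 CPM at 72 h and CR45668 from 95.4 and 116 to 0.8 and 1.09 CPM, and CR33938 rests on 0 to 2 UMIs at 60 and 72 h.

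The levels of 2 other genes moved within the series without a called change from 24 to 72 h. CR45312 (chr2R:13361825-13362835, minus strand), 7326 bases from its nearest coding gene, had 6.32 and 6.09 CPM (24 h), 31.5 and 27.9 (36 h), 75.9 and 71.2 (48 h), 17 and 14.6 (60 h) and 2.48 and 5.64 (72 h). It peaked at 48 h in both replicates, more than 10 times the 24 h level, and ended where it began (log2 fold change from 24 to 72 h -0.025 (SE 0.27, adjusted p = 0.94)). CR44997 had 14.3 and 20.1 CPM (24 h), 20.7 and 20.6 (36 h), 12.2 and 15.9 (48 h), 3.75 and 3.18 (60 h) and 7.04 and 23 (72 h). It held its level to 48 h and was lowest at 60 h, and its replicates at 72 h differed about 3-fold.

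T4 and T5 cells of each library were compared to ask which genes separate the types. Averaged over stages, 32 of the 50 genes differed, 19 higher in T4 and 13 higher in T5, against 40.1% of all genes tested, 18.7% and 21.4% by direction (edgeR, library as block). The median absolute log2 fold change was 0.26 for the 50 genes and 0.10 for all genes, and 4 genes differed at least 2-fold, against 4.25% of all genes. Without the library as a block 12 genes were called, and the shares of all genes given here belong to the fit with the block. At 24 h 15 genes differed, against 13.0% of all genes, and at 36 h 13 (9.84%). The counts were 27 (25.6%) for 48 h, 28 (32.4%) for 60 h and 29 (34.5%) for 72 h. For 34 genes the difference was not equal at all stages (34.8% of all genes).

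The gene with the largest T4 excess was CR44663 (chrX:15289362-15289705, plus strand), 3326 bases from CG5877. It had 15.2 and 20 CPM in T4 and 7.47 and 10.3 in T5 at 24 h, 22.4 and 31.3 and 4.08 and 5.12 at 48 h, 19.7 and 22.3 and 1.35 and 0.668 at 60 h and 6.02 and 10.1 and 1.49 and 1.84 at 72 h, replicates 1 and 2 in each case. T4 was higher in all 10 libraries and the ratio was largest at 60 h. The log2 fold change of T4 over T5 averaged over stages was 2.35 (SE 0.081, adjusted p = 2.3e-21). CR45312 had 5.34 and 4.96 CPM in T4 and 7.47 and 7.96 in T5 at 24 h, 122 and 116 and 27.8 and 23.4 at 48 h and 37.7 and 31.5 and 2.62 and 3.12 at 60 h. The order turned between 24 h, where T5 was higher in both libraries, and the stages from 36 h on. Averaged over stages its log2 fold change was 1.42 (SE 0.068, adjusted p = 1.0e-17), and at 60 h 3.63 (SE 0.15, adjusted p = 5.1e-19).

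CR46348 began without a difference. At 24 h it had 2.78 and 4.08 CPM in T4 and 3.11 and 3.54 in T5, and at 60 h 63.3 and 60.5 and 13.9 and 13.6. The rise over the stages was thus larger in T4 cells, and the log2 fold change averaged over stages was 1.18 (SE 0.067, adjusted p = 6.6e-16). CR45242, at 29.5 and 30 CPM in T4 and 23.9 and 22 in T5 at 24 h and under 2 CPM in both from 60 h on, had a log2 fold change of 0.75 (SE 0.18, adjusted p = 0.0011). That call was lost in sums over the 8 classes (adjusted p = 1.0).

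In T5 the largest excess was that of CR43148 (chr2L:21624679-21626190, plus strand), 119 bases from Df31, which codes for a chromatin-decondensing protein. It had 52.9 and 51.2 CPM in T4 and 77.9 and 69.9 in T5 at 24 h, 25.1 and 29.5 and 73.3 and 81.7 at 48 h and 3.24 and 4.76 and 40 and 69 at 72 h. The T4 level fell at each stage while the T5 level stayed between 40 and 81.7 CPM. Averaged over stages the log2 fold change was -1.77 (SE 0.037, adjusted p = 2.2e-27), that at 24 h -0.48 (SE 0.051, adjusted p = 1.1e-08) and that at 72 h -3.82 (SE 0.11, adjusted p = 9.4e-24). Df31, by contrast, had a log2 fold change of -0.03 between the types. CR45668 was higher in T5 in all 10 libraries, at 80.1 and 100.1 CPM in T4 and 113 and 143 in T5 at 24 h (log2 fold change averaged over stages -0.97 (SE 0.11, adjusted p = 1.2e-08)).

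CR44320 and CR46006 followed with smaller differences. CR44320 had 105 and 89.1 CPM in T4 and 89.6 and 85.8 in T5 at 24 h and 11 and 6.72 and 32.1 and 29 at 60 h. Its rebound at 60 h was larger in T5, and its mean log2 fold change was -0.64 (SE 0.067, adjusted p = 1.9e-09). CR46006 had 1359.9 and 1561 CPM in T4 and 1262 and 1504 in T5 at 24 h and 135 and 136 and 295 and 289 at 60 h. Within each library T4 was slightly higher at 24 h and T5 was higher at 60 h, with a mean log2 fold change of -0.57 (SE 0.023, adjusted p = 1.1e-19).

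**Figure D4:**
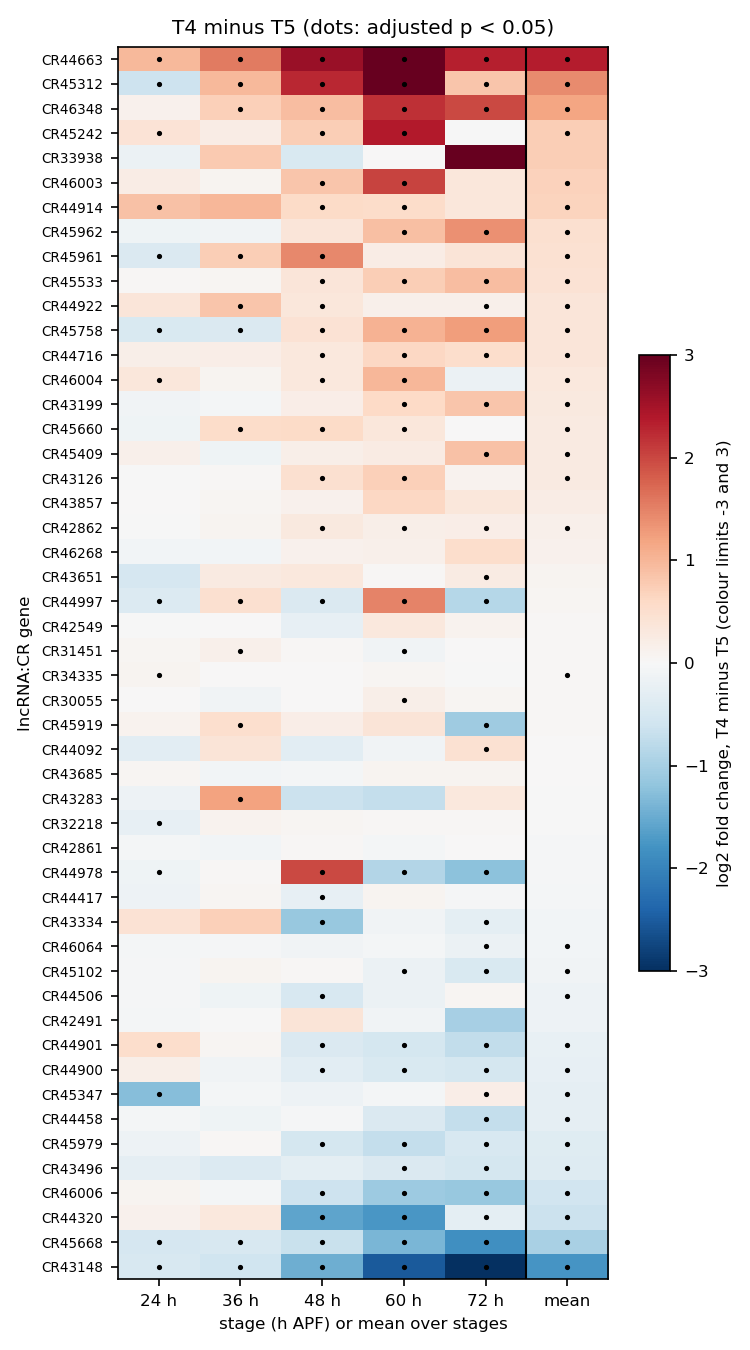
Log2 fold change of T4 over T5 for the lncRNA genes (rows) at each stage and averaged over stages (columns), in colour limited to -3 and 3, with a dot where the adjusted p was under 0.05 (edgeR, library as block). CR44663 and CR45312 are on the T4 side and CR43148 on the T5 side, and the colours of CR33938 at 60 and 72 h come from 0 to 2 UMIs and carry no information.

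Subtypes a and b were compared with c and d, the split that the transcription factors dac and bi mark, and 28 of the 50 genes differed, 15 higher in a,b and 13 higher in c,d, against 29.5% of all genes tested, 15.6% and 13.8% by direction. The median absolute log2 fold change was 0.19 for the 50 genes and 0.073 for all genes, and 5 genes differed at least 2-fold (4.13% of all genes). Without the library as a block 13 genes were called, and the shares of all genes given here belong to the fit with the block. For 30 genes the difference was not equal over the stages (28.6% of all genes).

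CR44978 had the largest difference of any of these genes between subtypes. At 24 h it had 586 and 611 CPM in a, 561 and 576 in b, 2.09 and 7.12 in c and 2.61 and 9.19 in d, and at 36 h 646 and 734 CPM in a, 521 and 673 in b, 4.02 and 6.53 in c and 2.31 and 5.99 in d. No a or b value came near a c or d value at these stages. By 72 h it had 9.22 and 23.2 CPM in a, 7.75 and 12 in b, 0.775 and 0.656 in c and 0 and 1.05 in d. The log2 fold change of a,b over c,d averaged over stages was 6.0 (SE 0.13, adjusted p = 1.2e-39). At 24 h 90.4 and 88.5% of a and b cells held a UMI, against 1.45 and 3.53% of c and d cells, at median depths of 6254 and 4928 UMIs in a and b and 6248 and 4973 in c and d. Thinned to 2000 UMIs per cell they came to 63.6 and 66.2% and 0.312 and 1.47%. Lar, on the opposite strand, had a log2 fold change of -0.02 between the same groups.

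CR45312 was also an a,b gene. It had 96.8 and 91.4 CPM in a, 138 and 132 in b, 11.6 and 14.8 in c and 12.2 and 8.86 in d at 48 h, and at 24 h 5.4 and 4.15 CPM in a, 18.4 and 18.5 in b, 0.522 and 0.438 in c and 0.238 and 1.17 in d. Subtype b was highest and a was second in all 10 libraries. The log2 fold change of a,b over c,d was 2.92 (SE 0.09, adjusted p = 3.1e-32) and that of a over b -0.94 (SE 0.074, adjusted p = 6.4e-15). CR45242 and CR44320 had smaller a,b excesses, 0.66 (SE 0.20, adjusted p = 0.0098) and 0.65 (SE 0.072, adjusted p = 1.0e-10). For CR45242 the value without 72 h replicate 2 was -0.038, on the other side of 0, and at 24 h it had 30 and 29.9 CPM in a, 28.4 and 34.2 in b, 20.9 and 17.1 in c and 27.1 and 24.9 in d. CR44320 had 113 and 103 CPM in a, 122 and 103 in b, 62.7 and 70.5 in c and 86 and 70.2 in d at 24 h.

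On the c,d side, CR44663 had 10.8 and 13.2 CPM in a, 10.6 and 13 in b, 11.5 and 21.7 in c and 13.8 and 18.6 in d at 24 h and 4.81 and 3.98 CPM in a, 2.39 and 2.4 in b, 15.7 and 19 in c and 18.7 and 18.6 in d at 60 h. Within each 24 h library c and d lay above a and b, by a smaller ratio than from 60 h on. The log2 fold change averaged over stages was -1.66 (SE 0.08, adjusted p = 6.7e-24). CR45533 (chrX:7445387-7450119, plus strand) and CR43199 (chrX:7450383-7452199, plus strand) are neighbours on X near CG11368. CR45533 had 3.8 and 7.5 CPM in a, 6.42 and 7.79 in b, 8.36 and 12.5 in c and 9.27 and 12.6 in d at 24 h and 12.9 and 16.1 CPM in a, 15.7 and 12.8 in b, 52.6 and 49.8 in c and 57.1 and 55.7 in d at 60 h. CR43199 had 7.77 and 5.47 CPM in a, 6.43 and 4.61 in b, 24.3 and 26.4 in c and 24.9 and 22.8 in d at 60 h. No a or b value of either gene reached a c or d value at 60 h, and the log2 fold changes of a,b over c,d averaged over stages were -1.26 (SE 0.053, adjusted p = 2.3e-26) and -1.17 (SE 0.072, adjusted p = 1.1e-19). CG11368 had -1.16 for the same comparison and also rose from 24 to 72 h, by 1.83 on the log2 scale. CR44914, 522 bases from the neuroligin gene Nlg2, had 14.4 and 7.95 CPM in a, 14.2 and 7.72 in b, 33.2 and 15.6 in c and 34.6 and 19.2 in d at 48 h, with a log2 fold change of -0.93 (SE 0.097, adjusted p = 1.5e-11) whose call was lost without 36 h replicate 2 (adjusted p = 0.063).

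Within the pairs fewer genes differed. Between a and b 12 genes did, 7 higher in a and 5 in b, against 8.11% of all genes (3.27% and 4.85%), and between c and d 9 did, 3 higher in c and 6 in d, against 6.1% of all genes (2.87% and 3.23%). Without 36 h replicate 2 the count between c and d was 4. In the comparison of b and c, which share the transcription factor gene grn (grain), with a and d, 18 genes differed, 8 higher in b,c and 10 in a,d, against 8.83% of all genes (4.71% and 4.12%). At least 2-fold differences were called for 1 gene in each of these 3 comparisons (1.21, 0.891 and 0.918% of all genes), and without the library as a block 2, 1 and 4 genes were called. The shares of all genes belong to the fits with the block, and no counts are drawn from the 6 libraries low in CR34335. The difference was unequal over the stages for 13 genes between a and b (8.79% of all genes), 6 between c and d (4.79%) and 9 between b,c and a,d (8.31%).

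The gene called at least 2-fold different in all 3 comparisons was CR44506 (chr2R:19692214-19697195, plus strand), 528 bases from Obp56a. At 24 h it had 29.4 and 29.9 CPM in a, 22 and 25.3 in b, 40 and 37.9 in c and 42.1 and 43 in d. At 36 h it had 15.4 and 17.6 CPM in a, 3.41 and 10.8 in b, 27 and 30.5 in c and 47.9 and 44.3 in d. Subtype b was lowest and d highest at 36 h in both replicates. At 48 h the values were 2 and 1.27 CPM in a, 17.7 and 16.8 in b, 28.2 and 22.6 in c and 22 and 14.8 in d, at 60 h 3.14 and 3.98 CPM in a, 79.8 and 69.1 in b, 62.8 and 61.9 in c and 3.25 and 2.45 in d and at 72 h 2.24 and 3.25 CPM in a, 80 and 69.3 in b, 51.5 and 53 in c and 1.83 and 2.5 in d. From 60 h on every b and c value lay above 50 CPM and every a and d value below 4 CPM, whereas all 4 subtypes held more than 20 CPM at 24 h.

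The fitted differences of CR44506 turned with it. The log2 fold change of b,c over a,d was -0.77 (SE 0.13, adjusted p = 3.3e-05) at 36 h and 4.55 (SE 0.13, adjusted p = 5.3e-33) at 72 h, and averaged over stages 1.99 (SE 0.066, adjusted p = 6.4e-30). For a over b it went from 0.91 at 36 h to -4.61 at 72 h, and for c over d from -0.62 to 4.48. At 72 h 20.7 and 23.3% of b cells and 13 and 19.6% of c cells held a UMI, against 0.685 and 1.3% of a cells and 0.504 and 0.98% of d cells, at median depths between 2882 and 4118 UMIs. Thinned to 2000 UMIs per cell they came to 14.8 and 12.9%, 10.4 and 10.5%, 0.376 and 0.68% and 0.624 and 0.281%. In all cells together CR44506 had 32.9 and 33.7 CPM (24 h), 22.6 and 25.2 (36 h), 16.3 and 12.9 (48 h), 41.4 and 37.6 (60 h) and 34.8 and 31.9 (72 h), lowest at 48 h and highest at 60 h.

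**Figure D5:**
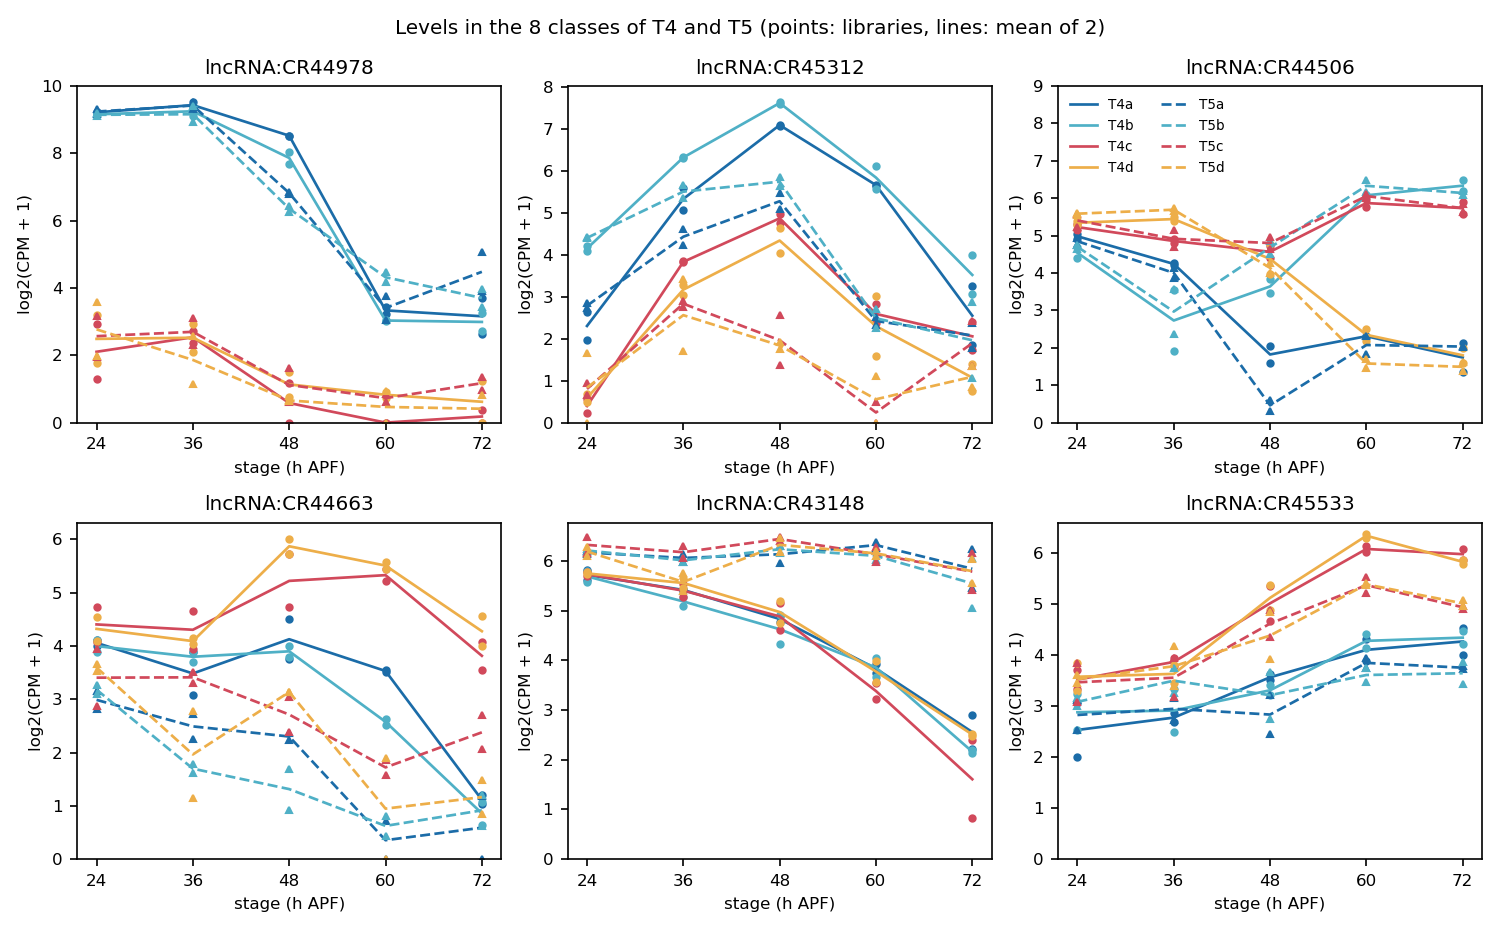
Level as log2(CPM + 1) of CR44978, CR45312, CR44506, CR44663, CR43148 and CR45533 in the 8 classes T4a to T5d by stage (h APF), 1 point per library and class with a line through the mean of the 2 libraries (T4 solid lines and circles, T5 dashed lines and triangles). CR44978 is high in a and b of both types, CR43148 stays in T5, and CR44506 separates b and c from a and d at 60 and 72 h, with 80 and 69.3 CPM in b at 72 h.

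The remaining differences within pairs were below 2-fold. CR44320 was higher in a than in b (log2 fold change 0.60 (SE 0.076, adjusted p = 1.4e-08)) and lower in c than in d (-0.52 (SE 0.13, adjusted p = 0.0043)), and at 60 h it had 40.9 and 35.3 CPM in a, 19 and 15.4 in b, 9.51 and 9.02 in c and 22.2 and 18.9 in d. Subtypes a and d were the higher of each pair there in both replicates. CR44716 (chr3L:11250450-11250868, minus strand), 1439 bases from scyl, which codes for an inhibitor of growth signalling, had the same signs in lesser size, 0.44 for a over b and -0.48 for c over d, and at 72 h 14.8 and 39.6 CPM in a, 14.4 and 24.9 in b, 8.52 and 24 in c and 16.1 and 38.1 in d. For b,c over a,d the values were -0.56 (SE 0.074, adjusted p = 5.1e-08) and -0.46 (SE 0.054, adjusted p = 2.0e-09). The a over b call of CR44320 was lost in sums over the 8 classes (0.28, adjusted p = 0.19). The c over d calls were lost without 48 h replicate 2 for CR44320 (adjusted p = 0.65) and without 36 h replicate 2 for CR44716 (0.054).

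CR45660 and CR45962 were higher in b. CR45660 had a log2 fold change of a over b of -0.45 (SE 0.064, adjusted p = 2.9e-07) and had 3.6 and 7.66 CPM in a, 8.26 and 19.1 in b, 4.18 and 14.1 in c and 3.33 and 9.38 in d at 24 h. Pxn, which it overlaps, had -0.45 for the same comparison. CR45962 (chr3L:22348168-22407547, minus strand), in the teneurin gene Ten-m, had -0.37 (SE 0.094, adjusted p = 0.0046) and Ten-m -0.24. The CR45962 call was lost without 48 h replicate 2 (adjusted p = 0.056) or 72 h replicate 2 (0.37). For b,c over a,d the log2 fold changes were 0.30 for CR45660, 0.31 for CR45962 and 0.64 for CR45312.

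Small and unstable calls made up the rest of those named. CR46004 had 0.36 for a over b and -0.25 for b,c over a,d, both lost without 60 h replicate 1 (adjusted p = 0.62 and 0.22). CR44978 had 0.23 for a over b, lost without 36 h replicate 1 (0.056), 60 h replicate 1 (0.59) or 72 h replicate 2 (0.80) and in DESeq2 (0.94). Between c and d, CR46348 had 0.42 (SE 0.096, adjusted p = 0.0019), with 53.9 and 38.1 CPM in c and 24.8 and 20.9 in d at 48 h, and CR31451 0.094, lost without 36 h replicate 2 (0.068). At 72 h CR46348 lacked the gap seen at 48 h, with 72 UMIs in c and 78 in d (replicate 1) and 229 and 227 (replicate 2). CR45347 (-0.30) and CR43685 (-0.22 for c over d, -0.22 for b,c over a,d) were higher in d, and both c over d calls were lost when any of 3 or 4 single libraries was left out, CR45347 without 24 h replicate 2 (0.35), 36 h replicate 1 (0.051), 60 h replicate 1 (0.066) or 60 h replicate 2 (0.099) and CR43685 without 24 h replicate 2 (0.060), 36 h replicate 2 (0.13) or 60 h replicate 2 (0.14). In the 6 libraries low in CR34335 the values for c over d were -0.22 for CR45347 and -0.16 for CR43685. The CR43685 call was also lost in DESeq2 (adjusted p = 0.052). That of CR45347 was lost with names from dac, bi and grn alone (0.058) and with all genes allowed as variable genes (0.052).

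The subtype difference itself differed between T4 and T5 for 6 genes in a,b against c,d (6.31% of all genes), 2 in a against b (1.44%), 1 in c against d (0.577%) and 4 in b,c against a,d (1.63%). The coding genes nearest to the members were read with the same fits. From 24 to 72 h 26 of 39 such genes tested changed, 15 upward and 11 downward (58.7% of all genes, 29.1% and 29.6%), 22 of 38 differed between T4 and T5 (40.1%) and 22 of 38 between a,b and c,d (29.5%). The lncRNA and its coding neighbour moved in the same direction in the Pxn, CG12290, CG11368 and RpL22 pairs given above and in opposite directions from 24 to 72 h at Lar and CG16721, pairs chosen by the genes named and not a test of coupling. Among lncRNA:CR genes below the minimum, 217 had enough counts to be tested over stages, and 103 of them changed from 24 to 72 h, 55 upward and 48 downward (58.7% of all genes). Between T4 and T5 35 of 176 such genes differed (40.1%), and between a,b and c,d 37 of 145 (29.5%).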

How the data were processed

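Sorted T4/T5 cells of 10 libraries were analysed, 2 per stage, grouped from the labels. The authors made the deposited count matrices (raw UMI counts per gene and barcode) with Cell Ranger v3 on the Ensembl 97 fly annotation with GFP and Gal4 sequences added, and 10x kit v3. From these counts, barcodes with at least 200 UMIs and at most 10% mitochondrial and 10% Hsp UMIs were kept, and doublets marked by Scrublet (scanpy 1.11.5), at 0.8% per 1000 barcodes, were removed (4676). The replicates of each stage were integrated and clustered with Seurat 5.3.0, with lncRNA and asRNA genes kept out of the variable genes, and clusters were named from markers. Cells were not replicates: counts of named cells were summed per library and class and fitted with edgeR 4.0.16 (quasi-likelihood, TMM, filterByExpr, Benjamini-Hochberg over all genes tested, adjusted p under 0.05), by stage for whole libraries and with the library as block for classes. DESeq2 1.42.0 and limma 3.58.1 (R 4.3.3) served as alternatives, besides those on scaling, filters, doublets, cell naming and single libraries. The script was tested on simulated counts. Libraries held 12798989 to 62530395 UMIs, and intervals were not drawn from cells. Named are the 8 genes with the most UMIs, the 6 largest called rises and falls from 24 to 72 h, up to 4 called in each direction of each class comparison, and their nearest coding genes. The genes and lists were chosen with earlier results of these data known. Positions are from Ensembl 115 (BDGP6.54), with 49 genes matched by identifier and CR43334 by symbol. Replicate numbers do not pair libraries across all stages: deviations of same-numbered libraries correlated at -0.42 to 0.66, over 0.1 in 3 of 10 pairs of stages. These pairs were 36 with 48 h (0.34), 36 with 72 h (0.40) and 48 with 72 h (0.66). With 36, 48 and 72 h, 60 h gave -0.30, -0.41 and -0.42. The libraries high in CR34335 were replicate 1 at 36, 48 and 72 h and replicate 2 at 60 h. Pairs with 24 h gave -0.22 to 0.04. What the libraries share was not tested.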

Additional observations from a re-analysis of the deposited data

Results flagged for a closer look

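Results were singled out where an effect differed between groups under the same contrast. The subtype difference was tested against the type (difference in T4 minus difference in T5, averaged over stages, edgeR). CR44320 had the largest such value, -2.27 (SE 0.19, adjusted p = 7.0e-16) for a,b over c,d, besides -0.95 (SE 0.23, adjusted p = 0.01) for a over b and 0.81 (SE 0.19, adjusted p = 0.0061) for b,c over a,d. CR46348 had 0.83 (SE 0.14, adjusted p = 5.2e-06) for a,b over c,d and -0.57 (SE 0.14, adjusted p = 0.013) for b,c over a,d. The other values for a,b over c,d were -0.77 (SE 0.15, adjusted p = 9.7e-05) for CR44997, -0.40 (SE 0.055, adjusted p = 2.3e-08) for CR45758, -0.18 (SE 0.029, adjusted p = 2.2e-06) for CR31451 and 0.17 (SE 0.037, adjusted p = 8.1e-04) for CR46006. CR45962 had 0.92 (SE 0.22, adjusted p = 0.011) for a over b, CR44506 -0.62 (SE 0.17, adjusted p = 0.026) for b,c over a,d, and CR34335 -0.14 (SE 0.026, adjusted p = 3.3e-04) for c over d and -0.096 (SE 0.018, adjusted p = 1.7e-04) for b,c over a,d.

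Other genes turned over the stages, with a called difference in each direction and an F test over the stages that called the difference unequal. Between T4 and T5 (log2 fold change of T4 over T5), CR44978 went from 1.98 at 48 h to -1.23 at 72 h, CR44997 from 1.5 at 60 h to -0.84 at 72 h, CR45312 from -0.61 at 24 h to 3.63 at 60 h, CR44901 from 0.52 at 24 h to -0.74 at 72 h and CR45919 from 0.51 at 36 h to -1.06 at 72 h. For a,b over c,d, CR44997 went from -1.12 at 60 h to 1.19 at 72 h, CR45347 from 1.20 at 24 h to -0.83 at 48 h and CR46003 from 0.71 at 36 h to -0.77 at 60 h. CR44506 turned on 3 comparisons between 36 and 72 h, from 0.91 to -4.61 for a over b, from -0.62 to 4.48 for c over d and from -0.77 to 4.55 for b,c over a,d.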

How the results depend on the processing

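Over 51 named genes and comparisons 1 fitted value changed sign (CR45242 in a,b against c,d, -0.038 without 72 h replicate 2 and up to 1.13 without 60 h replicate 1). The direction was kept in all other settings. Calls lost when single libraries were left out are given with the genes above. No tally of kept calls is given, since it would include the fit on the libraries low in CR34335. Leaving out single libraries gave 29 to 37 genes changed from 24 to 72 h and 34 to 40 at any stage, 26 to 32 genes between T4 and T5, 22 to 30 between a,b and c,d, 8 to 12 between a and b, 4 to 10 between c and d (4 without 36 h replicate 2) and 13 to 19 between b,c and a,d. The median share of cells with a UMI ranged from 9.78 to 11.6% and the median level from 23.9 to 25.9 CPM. Without the replicate block, here the library that T4 and T5 or the subtypes share, 12 genes were called between T4 and T5, 13 between a,b and c,d, 2 between a and b, 1 between c and d and 4 between b,c and a,d; adding the replicate number as a block to the stages left 35 and 38 genes. With a minimum of 2-fold the class counts were 4, 5, 1, 1 and 1. Thinning cells to 2000 UMIs moved the median share from 11.2 to 4.60%, and leaving mitochondrial, heat shock and ribosomal protein genes out of the totals moved the median level from 24.8 to 30.8 CPM. The causes were not tested beyond the construction of each setting. Depth limits the low genes: several members held under 1 CPM at single stages, and a level of 0 in a class reflects few UMIs. Residual degrees of freedom were 5 for the stages, so that small changes of low genes could not be called.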

Other observations

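lncRNA genes with a name of their own were read in the same fits. Of 7 with enough counts, 3 rose from 24 to 72 h, where 29.1% of all genes did. These were noe, with a log2 fold change of 3.37 (SE 0.33, adjusted p = 4.9e-05), and roX2 and roX1, the RNAs of the male dosage compensation complex, with 2.70 (SE 0.39, adjusted p = 5.1e-04) and 1.43 (SE 0.41, adjusted p = 0.016). In the F test over the stages roX1 was not called (adjusted p = 0.071). Female and male pupae were not separated, and the part of the sexes in the roX levels was not tested. Not called from 24 to 72 h were Hsromega (0.77 (SE 0.38, adjusted p = 0.11)), the host transcript let7C (-0.85 (SE 1.26, adjusted p = 0.58)), alphagamma-element (0.33 (SE 0.80, adjusted p = 0.74)) and sphinx (1.55 (SE 1.67, adjusted p = 0.44)). Hsromega was called in the F test over the stages (adjusted p = 0.045). Between a,b and c,d noe was higher in a,b, with 0.81 (SE 0.015, adjusted p = 7.8e-42), and between T4 and T5 its value was 0.19 (SE 0.014, adjusted p = 7.9e-13).

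Antisense genes (symbols beginning asRNA:CR) changed from 24 to 72 h in 60 of 119 cases tested, where 58.7% of all genes did. Between T4 and T5 18 of 94 differed (40.1% of all genes) and between a,b and c,d 11 of 79 (29.5%). Depth was not matched between the antisense genes and all genes, so that these shares do not compare them.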
